A study of Drosophila melanogaster with 2 samples.

Results

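The 9 genes described here, tin, bap, Mef2, twi, sna, htl, Doc1, Doc2 and Doc3, regulate the formation of mesoderm and heart in Drosophila melanogaster. They were chosen by name, out of 17896 annotated genes on 6 chromosome arms. For each gene, peaks with a summit in the gene body or within 5 kb of it were taken, a stretch called its window. Chromatin immunoprecipitation followed by sequencing (ChIP-seq) used an anti-GFP antibody on whole embryos aged 0 to 12 h, from a stable transgenic line in which CG2202 carries GFP at its C-terminus. RefSeq describes the CG2202 product as uncharacterized. The 2 samples are biological replicates of that 1 group, and no embryos without the tag were analysed here.

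Mesoderm arises on the ventral side of the fly embryo, where the bHLH factor Twist and the zinc finger repressor Snail set cell identity before gastrulation. Cells then spread under the control of the FGF receptor Heartless, and the MADS box factor Mef2 drives muscle differentiation. In dorsal mesoderm, the homeodomain factor Tinman specifies heart and visceral muscle precursors, Bagpipe acts in visceral muscle, and the T-box factors Dorsocross 1, 2 and 3 act in heart and amnioserosa. Mesoderm is a part of the embryo, so a low signal from whole embryos cannot tell weak binding from binding in few cells.

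The values are the caller's signal and its rank within 1 list, where rank 1 is the strongest. The pooled list holds 30000 peaks from the reads of both replicates, each replicate list holds 30000, and the IDR (irreproducible discovery rate) list holds the 3571 pooled peaks of highest signal, from 120.9 upwards. A peak's q-value, the caller's false discovery estimate, was below 0.05 for 13201 pooled peaks. Sequencing depth is unknown. Scales differ between lists, so signals were compared within a list and ranks across lists. There is 1 condition, no test was made, and all values are descriptions.

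CG2202-GFP peaks of the IDR list lay in the windows of 6 of the 9 genes, tin, Mef2, htl, Doc1, Doc2 and Doc3, and in none of the windows of bap, twi and sna. Among protein-coding genes, 38.6% had an IDR summit in the same window, and among all genes 36.6%. At their own promoters, within 500 bp of an annotated transcription start site (TSS), tin, Mef2 and htl had an IDR summit. This was 3 of 9, beside 14.1% of protein-coding genes and 12.1% of all genes. The windows held 77 distinct pooled peaks, of which 39 had a q-value below 0.05 and 12 were IDR peaks. Some pooled peaks overlapped a neighbour in part, so these are counts of summits, not of separate stretches. One IDR peak lies in the windows of both Doc2 and Doc3.

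**Figure D1:**
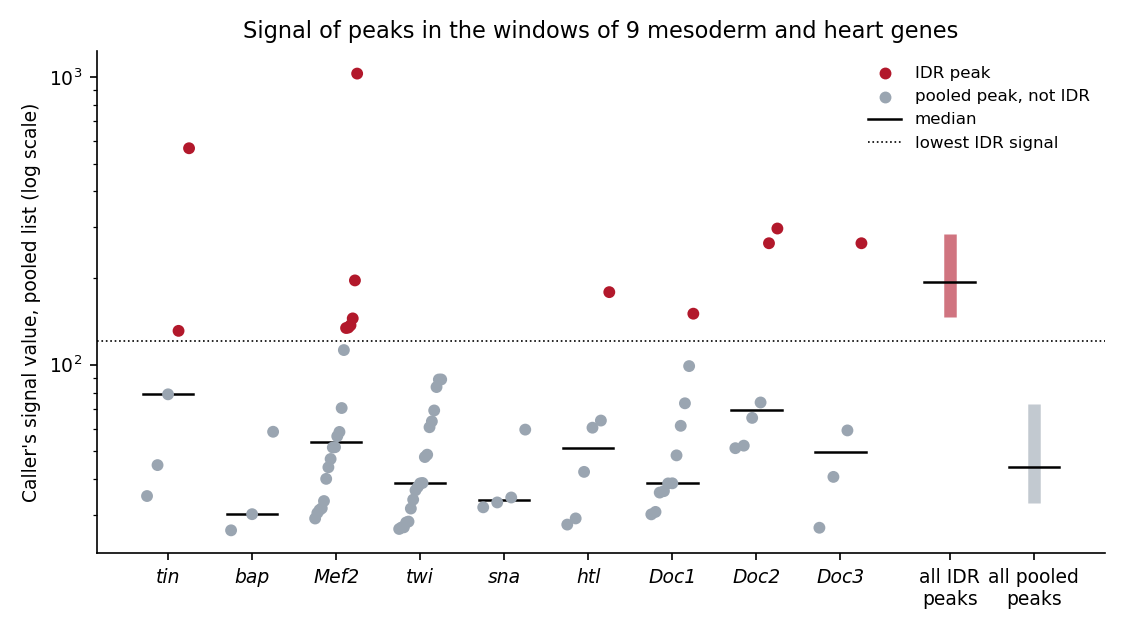
Each point is a pooled peak in the window of 1 gene, with the caller's signal on a log axis, IDR peaks in red and other pooled peaks in grey. Horizontal lines are medians, and the bars at the right span the quartiles of all 3571 IDR and all 30000 pooled peaks. The strongest peaks are 1 each in the windows of Mef2 (1027) and tin (565), and the points of bap, twi and sna reach at most 88.8. The peak of 1027 lies nearer to the start sites of Pal1 and Pdrg1 than to one of Mef2.

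Peaks were denser in the 9 windows than along the chromosome arms. The merged windows, 216.9 kb, held 5.53 IDR summits per 100 kb, against 2.95 in the merged windows of all protein-coding genes and 2.67 over the arms. Pooled summits had densities of 35.5, 24.4 and 22.4 per 100 kb in the same order. Counting only IDR summits whose nearest TSS is that of a member, the merged windows held 4.15 per 100 kb. The genes differed widely among themselves. The Mef2 window held 6 of the 12 IDR summits, and the windows of bap, twi and sna held 0. The density of IDR summits was highest at tin, 15.4 per 100 kb, followed by Doc2 with 12.1, Mef2 with 10.8, Doc3 with 8.30, Doc1 with 7.32 and htl with 5.63. Each of these rests on between 1 and 6 summits, so their order is that of small counts. The median signal of the 12 IDR peaks was 164.5 (quartiles 136.4 to 272.5), lower than the 193.5 of all IDR peaks (147.0 to 284.9), with largely overlapping quartiles.

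**Figure D2:**
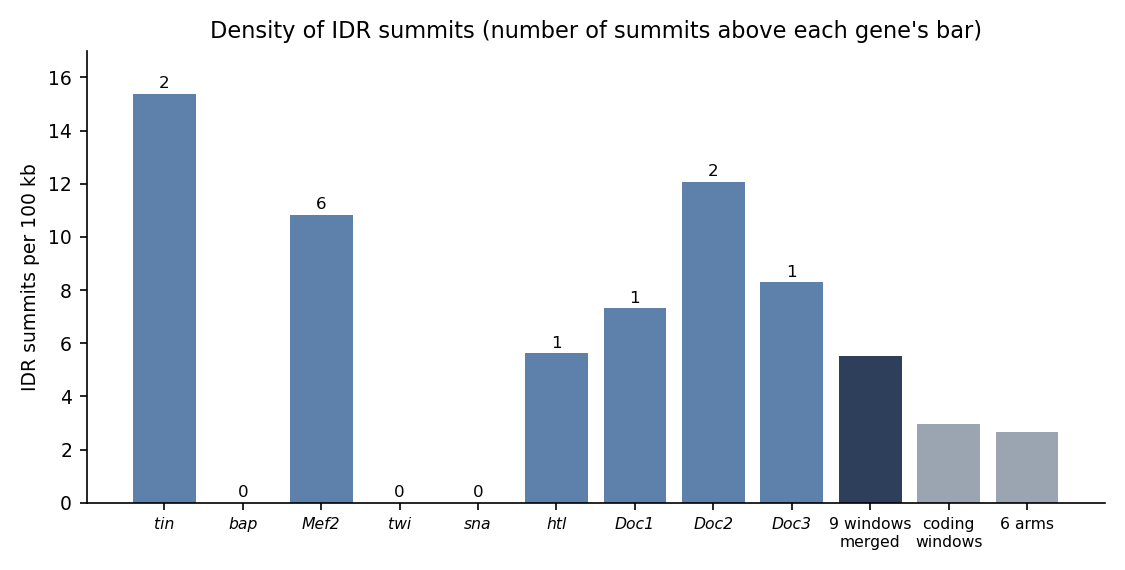
Bars give IDR summits per 100 kb of window for each gene, then for the 9 windows merged, for the merged windows of protein-coding genes and for the 6 arms. Numbers above the genes' bars are the IDR summits behind them, from 0 at bap, twi and sna to 6 at Mef2.

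The strongest promoter peak of the 9 genes was at tin (FBgn0004110, 3R 21378977 to 21381970 on the plus strand), the homeobox gene required for the heart. Its summit lay 196 bp upstream of the single TSS. The signal was 565 and the rank 204 in the pooled list. Its signals were 282 (rank 192) in replicate 1 and 287 (rank 244) in replicate 2, so both placed it near the top of their lists. Transcribed tin sequence and the 5 kb downstream of it held no pooled summit, the other 4 pooled summits of the window lying further upstream. Their nearest start sites are those of mod(mdg4), which encodes chromatin and insulator proteins, or of pre-mod(mdg4) transcripts annotated beside it. A second IDR peak of the window, with a signal of 131 and a rank of 3165, lay 39 bp downstream of a TSS of mod(mdg4) and 1615 bp upstream of tin. Its signals were 48.04 (rank 5477) in replicate 1 and 80.7 (rank 2645) in replicate 2, lower than the tin promoter peak in both. A pooled peak below the IDR list, in an intron 995 bp downstream of a mod(mdg4) TSS, had a signal of 78.9.

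Sequence is shown for the tin promoter because it carries the strongest of the promoter peaks, the 250 bases before the TSS on the plus strand (dm6, chr3R:21378727-21378976). Capitals mark the 1 match to a searched word, the E-box CATATG, a form bound by Twist.
tin promoter: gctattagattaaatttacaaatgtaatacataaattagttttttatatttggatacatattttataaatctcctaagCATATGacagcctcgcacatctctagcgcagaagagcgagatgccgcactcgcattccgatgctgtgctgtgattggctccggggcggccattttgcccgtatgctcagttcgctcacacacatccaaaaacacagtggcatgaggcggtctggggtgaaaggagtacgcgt
The same E-box was in 7.10% of the 250-base stretches upstream of protein-coding genes. The bases around the summit were AT-rich, with 25.7% GC in the stretch of 50 bases either side of it and a longest run of 13 bases made of A and T alone.

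The 3 Dorsocross genes lie in 1 cluster on 3L, with 5436 bp between Doc3 and Doc2 and 22128 bp between Doc2 and Doc1. None of their promoters had an IDR summit. The strong peaks lay in the intervals between the genes and in a Doc1 intron. The strongest, with a signal of 297 and a rank of 823, was intergenic, 4566 bp upstream of Doc2 (FBgn0035956, 3L 9012686 to 9019246, minus strand). Its signals were 143.4 (rank 852) in replicate 1 and 144.1 (rank 1053) in replicate 2. Between Doc3 and Doc2, a peak with a signal of 264 and a rank of 1053 lay 701 bp past the 3′ end of Doc2, 4736 bp past that of Doc3 (FBgn0035954, 3L 9005196 to 9007249, plus strand) and 2147 bp upstream of CG5194. Its signals were 148.3 (rank 790) in replicate 1 and 107.5 (rank 1709) in replicate 2. Both intergenic peaks were thus placed within the top 1709 of either replicate.

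The Doc1 peak was further down the list. It had a signal of 150 and a rank of 2597, and lay in an intron of Doc1 (FBgn0028789, 3L 9041375 to 9045042, plus strand), 1050 bp downstream of the nearer of its 2 start sites. Replicate 1 gave it a signal of 48.5 (rank 5395) and replicate 2 a signal of 103.9 (rank 1789), so replicate 2 ranked it higher. Another peak, 531 bp past the 3′ end of Doc1, lay nearer to Argk2, 1866 bp upstream of its TSS. Its signal was 98.9, below the lowest IDR signal of 120.9. It ranked 4806 in replicate 1 and 5433 in replicate 2. Doc1 had the densest window for pooled summits, 8.05 per 10 kb, while the other 8 genes had 2.59 to 3.85. Of the 11 summits in it, 5 had a q-value below 0.05, and several lay nearest a TSS of Argk2 or lncRNA:CR46451.

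Promoter summits of the Dorsocross genes were weak. At Doc1 they had signals of 61.3, 2 bp downstream of the upstream TSS, and 73.4, 459 bp downstream of the other. The second of these ranked 3311 in replicate 1, within its top 3571, and 24267 in replicate 2. The Doc2 promoter peak, 182 bp upstream, had a signal of 51.3, and the Doc3 promoter peak, 323 bp upstream, 59.1. For Doc2 the signals were 33.3 (rank 10066) in replicate 1 and 16.1 (rank 29516) in replicate 2, and for Doc3 they were 27.7 (rank 13502) and 19.999 (rank 21526). Replicate 1 thus ranked both higher.

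The IDR peaks of the Dorsocross genes and of htl are shown because they carry the signal at these genes, each as the summit base with 50 bases either side, in the direction of Doc2, Doc1 or htl (dm6). The first is chr3L:9023762-9023862 on the minus strand, the second chr3L:9011935-9012035 on the minus strand, the third chr3L:9042829-9042929 on the plus strand and the last chr3R:18049709-18049809 on the minus strand. Capitals mark matches to searched words. These are TTATC, the reverse complement of the GATA factor word GATAA, and TTTAAAAA, an AT-rich word taken from earlier results on these data.
Doc2 upstream: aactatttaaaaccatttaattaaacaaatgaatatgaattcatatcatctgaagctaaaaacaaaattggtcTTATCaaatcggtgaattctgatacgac
Doc2 and Doc3 intergenic: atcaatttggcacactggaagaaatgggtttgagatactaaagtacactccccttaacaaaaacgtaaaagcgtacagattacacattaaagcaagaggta
Doc1 intron: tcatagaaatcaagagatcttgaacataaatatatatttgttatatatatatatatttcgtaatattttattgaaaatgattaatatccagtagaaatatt
htl intron: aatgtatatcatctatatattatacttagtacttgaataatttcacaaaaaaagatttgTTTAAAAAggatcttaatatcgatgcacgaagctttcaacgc
GC content was 25.7% upstream of Doc2, 36.6% between Doc2 and Doc3, 16.8% in Doc1 and 25.7% in htl. The Doc1 stretch held the longest run of A and T alone at the 12 IDR summits, 18 bases, and the htl stretch a run of 11.

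The FGF receptor gene htl (FBgn0010389, 3R 18045216 to 18052984, minus strand) has 2 annotated start sites. An IDR peak lay 393 bp upstream of the downstream one, inside an intron of the longer transcript, with a signal of 179 and a rank of 2010. Its signals were 60.2 (rank 3776) in replicate 1 and 104.9 (rank 1758) in replicate 2, on either side of rank 3571. At the upstream TSS, the promoter peak 210 bp before it had a signal of 63.9 and ranked 6586 in replicate 1 and 16794 in replicate 2. The other 4 pooled peaks of htl had signals of 27.8 to 60.4.

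**Figure D3:**
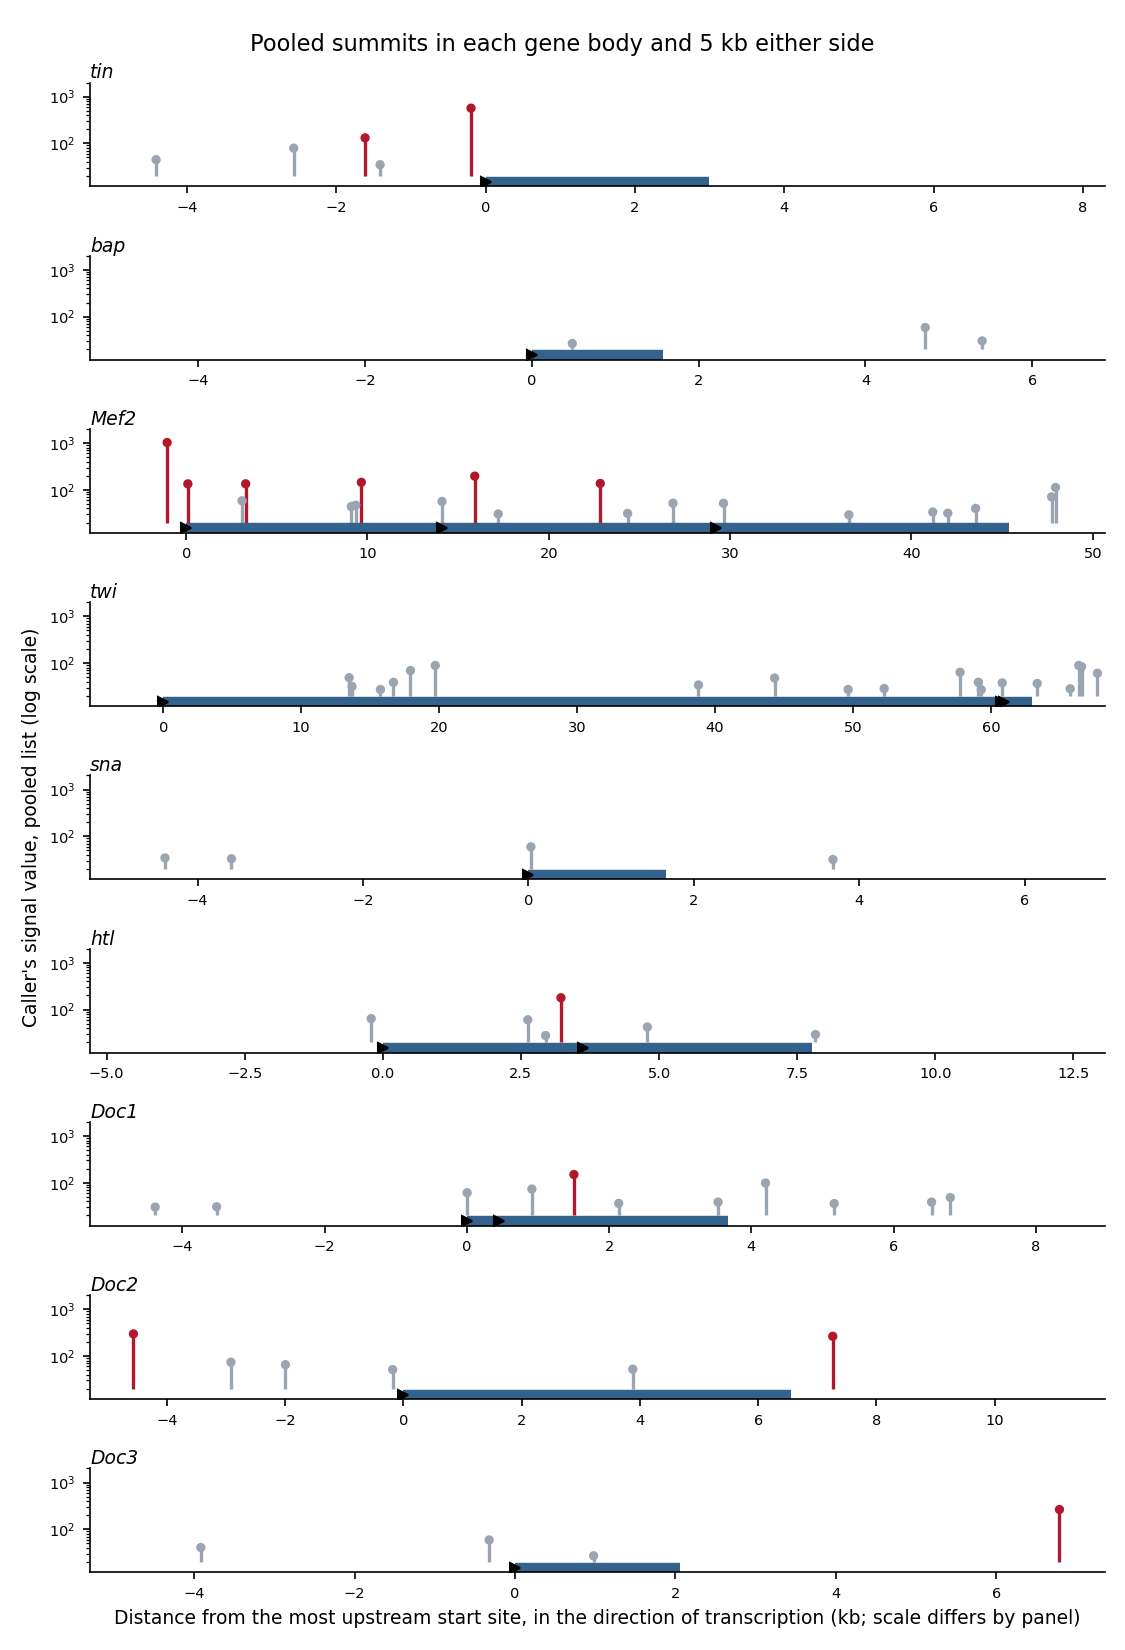
Each panel shows 1 gene with 5 kb either side, drawn in the direction of transcription, with distance from its most upstream start site in kb and the caller's signal on a log axis. Blue bars are gene bodies, black arrowheads start sites, red stems IDR summits and grey stems other pooled summits. Mef2 has 5 IDR summits inside its body, while tin has both of its IDR summits upstream and Doc2 has 1 on each side.

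Mef2 (FBgn0011656, 2R 9913496 to 9958858, minus strand) had more IDR summits than any other of the 9 genes. There were 6 in its window of 55363 bp, 5 of them in the gene body. Of protein-coding genes, 13.1% had 2 or more IDR summits in the window, as had tin, Mef2 and Doc2, and 0.437% had 6 or more. The genes with 6 or more had a median window of 55.9 kb, and the median protein-coding window was 12.2 kb. The window of twi, 72952 bp, was longer than that of Mef2 and held 0 IDR summits. The part of window length in these counts was not tested.

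The strongest peak of the Mef2 window lay nearer to other promoters. It had a signal of 1027 and a rank of 36, with signals of 435.0 (rank 56) in replicate 1 and 600.5 (rank 37) in replicate 2. Its summit lay 173 bp upstream of both Pal1, a peptide amidation enzyme gene, and Pdrg1, a prefoldin-like gene, and 1047 bp upstream of the most upstream Mef2 TSS. That TSS had its own IDR summit, 95 bp downstream in the 5′ UTR, with a signal of 134 and a rank of 3063. Its signals were 41.3 (rank 7048) in replicate 1 and 77.8 (rank 2802) in replicate 2. The other 2 Mef2 start sites had promoter peaks below the IDR list, with signals of 56.4 and 51.5. The peak of 56.4, at the second TSS, overlapped a peak of replicate 2 alone, and that of 51.5, at the third, a peak of replicate 1 alone.

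The other 4 IDR summits of Mef2 lay between its start sites. An intronic peak 3284 bp after the first TSS had a signal of 135, and an intronic peak 4430 bp before the second TSS had 145. A peak 1823 bp after the second TSS, in an exon annotated as 5′ UTR, had 196 and was the strongest in the gene body. An intronic peak 6404 bp before the third TSS had 137. Going downstream, these 4 summits stood 6380, 6253 and 6922 bp apart. In replicate 1 their signals ran from 73.1 to 101.1 and their ranks from 1601 to 2783, and in replicate 2 their signals ran from 45.8 to 93.2 and their ranks from 2112 to 6228. No IDR summit lay in the part of the gene after the third TSS, where the pooled signals reached 51.5. Past the 3′ end, the promoter peak of Etf-QO, a mitochondrial oxidoreductase gene, had a signal of 112, the highest in the 9 windows below the IDR list.

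The earliest acting genes, twi and sna, had no IDR summit. twi (FBgn0003900, 2R 22985374 to 23048325, plus strand) is annotated over 62952 bp because of 1 transcript with a distal TSS, while its other 2 transcripts span 2218 and 2004 bp. No pooled summit lay within 500 bp of the distal TSS. The 2 proximal TSSs shared a summit of signal 37.6 and rank 18810, whose q-value was not below 0.05. Its signals were 24.6 (rank 16410) in replicate 1 and 20.3 (rank 21024) in replicate 2. The strongest of the 19 pooled peaks had signals of 88.8, 5420 bp downstream of a proximal TSS, and also 88.8 in an intron of the long transcript. Their nearest start sites were those of other genes, Fatp2 at 3732 bp and CG9896 at 6212 bp. Both peaks were under the lowest IDR signal, and 1.51% of protein-coding windows were as long as that of twi or longer. The nearest IDR summit was 16055 bp from the gene body.

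At sna (FBgn0003448, 2L 15476593 to 15478260, minus strand) the replicates differed. Its promoter peak, 30 bp downstream of the TSS, had a signal of 59.5 and a rank of 9941 in the pooled list, with a q-value below 0.05. In replicate 1 the overlapping peak had a signal of 16.5 and a rank of 29669, near the list's lowest signal of 16.3. Replicate 2 had no peak in the whole sna window, where replicate 1 had 7. The other 3 pooled peaks at sna had signals of 31.9 to 34.5, and the nearest IDR summit was 11287 bp away.

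bap (FBgn0004862, 3R 21388880 to 21390449, plus strand) lies 6909 bp downstream of tin and had the weakest promoter summit of the 9 genes. Its signal was 26.6 at rank 29829, close to the lowest pooled signal of 26.4, and neither replicate list held an overlapping peak. The strongest bap peak, 3148 bp past the 3′ end, had a signal of 58.5 and ranked 5571 in replicate 1 and 9791 in replicate 2. The nearest IDR summit was the tin promoter peak, 10099 bp away.

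Weaker promoter peaks were common in the set. Every one of the 9 genes had some pooled summit at a promoter, and 53.5% of protein-coding genes did. With a q-value below 0.05 there were 7 of 9, the exceptions being bap and twi, beside 39.9% of protein-coding genes. In the order of their strongest promoter signal, tin (565), htl (179) and Mef2 (134) stood above Doc1 (73.4), sna (59.5), Doc3 (59.1), Doc2 (51.3), twi (37.6) and bap (26.6). Neighbours such as sna and Doc3 differ by less than 1 signal unit, and with 1 pooled value per gene there is no spread by which to part them.

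By annotation, 5 of the 12 IDR summits lay at a promoter of any gene, 4 in introns, 2 in intergenic sequence and 1 in a 5′ UTR. Of all IDR summits, 45.3% were at promoters, 36.4% in introns and 15.8% intergenic. The nearest TSS was one of the 9 genes for 9 of the 12, the exceptions being the summits nearest mod(mdg4), CG5194, and Pal1 with Pdrg1. The rule's limit of 5 kb left out some nearby peaks. Just inside it was the peak 4736 bp from Doc3, with a signal of 264. Just outside were IDR summits 6607 and 9016 bp upstream of Doc2, with signals of 210.8 and 201.0, 6897 bp upstream of Doc1, with 155, and 8787 bp upstream of Doc3 at the smg promoter, with 130.

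All 12 IDR peaks overlapped a peak of both replicates, which is in part a product of how the list was made. Within the top 3571 peaks were 8 of them in replicate 1 and 10 in replicate 2, and 6 in both, against 81.2%, 82.4% and 64.7% of all IDR peaks. Replicate 1 ranked 7 higher and replicate 2 ranked 5 higher. The 2 strongest, upstream of Mef2 and tin, stayed within the top 244 of both. Mef2 had peaks on both sides, since replicate 1 ranked the peak 4430 bp before its second TSS 1945 and replicate 2 ranked it 6228, the reverse of the order at its first TSS. Across the 47 pooled peaks of the windows with a match in both replicates, Spearman's rho of the replicate signals was 0.774. Some neighbouring pooled peaks match the same replicate peak, and the IDR peaks add high values.

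**Figure D4:**
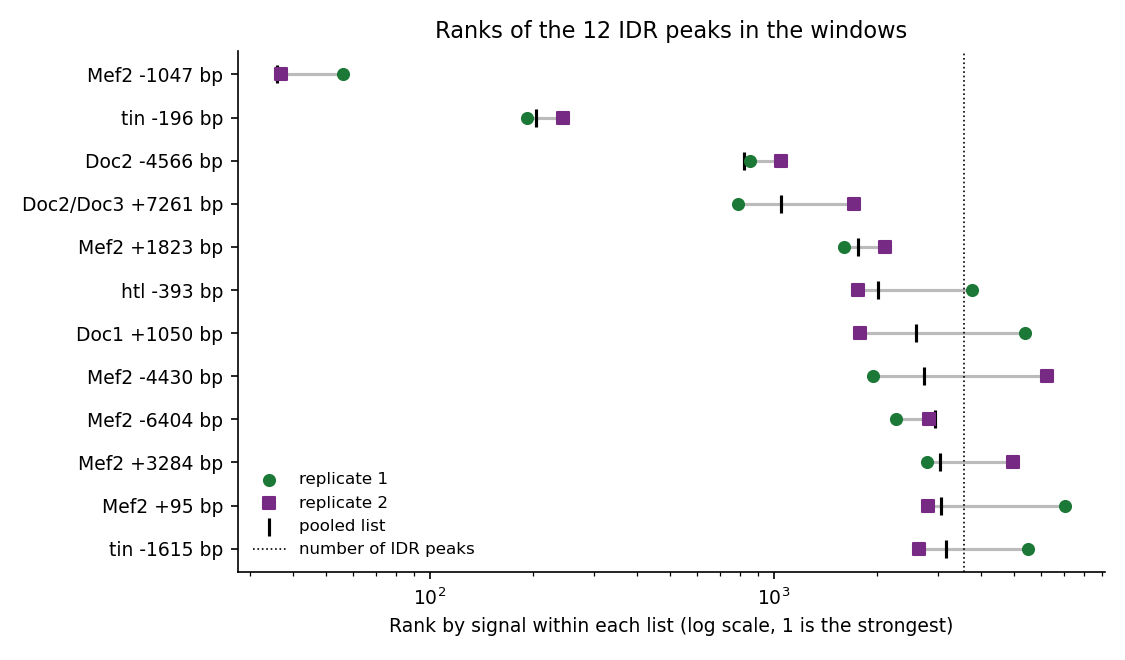
For each of the 12 IDR peaks, named by gene and distance from its nearest own TSS, circles give the rank in replicate 1, squares that in replicate 2 and bars that in the pooled list, on a log axis. The dotted line marks rank 3571, beyond which 4 peaks fall in replicate 1 and 2 in replicate 2.

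Below the IDR list the replicates were less even in these windows. Of the 65 other pooled peaks, 20 had an overlapping peak in replicate 1 alone and 4 in replicate 2 alone, 30.8% and 6.15%. Over the whole pooled list the same shares of peaks outside the IDR list were 21.7% and 20.1%. Replicate 1 held 90 peaks in the windows and replicate 2 held 66, from lists of equal length. The 20 included the promoter peak of sna and intronic or upstream peaks of htl, Doc1 and Doc2, with pooled signals of 26.9 to 65.3. Median GC content around summits was 44.6% and 39.6% for the window peaks of replicates 1 and 2, and 43.6% and 38.6% for their whole lists. The part of base composition in the uneven counts was not tested.

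Many of the IDR peaks were narrow. Of the 12, 8 were narrower than the list's most common width of 400 bp, between 106 bp at htl and 301 bp at tin. The share was 48.7% for all IDR peaks and 6.0% for all pooled peaks, and no other pooled peak of the windows was narrower. The pooled list includes the 1739 narrower IDR peaks, so its 6.0% is not the share among peaks outside the IDR list. The 8 were those of the tin promoter, the htl and Doc1 introns, both intergenic peaks beside Doc2, and Mef2 at 3 of its internal sites. Around these 8 summits median GC content was 29.7%, and around the other 4 it was 46.5%. The same split over the whole IDR list gave closer values, 31.7% for narrower peaks and 33.7% for the others. Median GC content over all 12 was 35.1%, between 32.7% for all IDR and 40.6% for all pooled summits. For the other 65 pooled peaks of the windows it was 43.6%. The longest run of A and T alone had a median of 8 bases at the 12 summits, beside 10 at all IDR and 8 at all pooled summits.

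Words known for mesoderm and general factors were searched on either strand within 50 bases of each summit. The AT-rich word TTTAAAAA, also searched, is not such a word. It was taken from earlier results on these data, so its matches are not an independent observation. Of the 12 IDR summits, the Twist E-boxes CATATG and CACATG were found at 1 each, the tin promoter and the Mef2 intron 3284 bp after its first TSS. They occurred at 3.92% and 3.50% of all IDR summits. The Tinman word CACTTGA, the Snail word CAGGTG, the Mef2 cores TAAAAATA and TATTTATA, the T-box word AGGTGT, the Zelda word CAGGTAG, the GAF word GAGAG and the DREF word TATCGATA were found at 0 of the 12. Among all IDR summits their shares, in the order named, were 1.62%, 2.27%, 5.57%, 4.26%, 2.69%, 0.504%, 9.38% and 1.15%. GATAA was at 2 of the 12, upstream of Mef2 and of Doc2, and at 24.9% of all IDR summits, and TTTAAAAA was at 1, in htl, and at 6.30%. CATATG reads the same on both strands, as does TATCGATA, and the other words were also searched as their reverse complement. Some words can share letters, such as CAGGTG with AGGTGT and TAAAAATA with TTTAAAAA. At the other 65 pooled summits of the windows, GAGAG was found at 15, GATAA at 13, CACATG at 6 and CATATG at 3. The shares of all pooled summits that hold these words were, in the same order, 12.4%, 20.7%, 5.11% and 3.79%. CAGGTAG and TATCGATA were at 0 of the 65, and each of the other 6 words was at 1 or 2. A match says only that the letters are there.

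IDR peaks lay at some related genes as well. Over 7 lists of dorsoventral, FGF, heart, muscle and family genes, 37 of 68 separate genes had an IDR summit in the window, 54.4% beside the 38.6% of protein-coding genes, and 11 had one at a promoter, 16.2% beside 14.1%. The dorsoventral network had 12 of 17 genes with a window summit, with sim, the midline regulator (531), brk, a repressor of Dpp targets (371), tup (304) and T48 (273) the strongest by signal. Heart and visceral mesoderm factors had 10 of 17, led by the forkhead gene CHES-1-like (488), the ETS gene pnt (471), zfh1 (343) and tup. The somatic muscle list had 6 of 12. Its highest signal was at E(spl)m6-BFM (673), whose name places it in the Bearded family rather than among muscle factors. Next came Poxm (242), nau, the fly MyoD relative (203), and kn (201.0). Of the genes named here, Poxm alone had its strongest window summit at its own promoter. Window length was not accounted for in these counts.

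The other 4 lists hold between 3 and 10 genes each, and their shares with a window summit were 33.3% to 50%, beside the 38.6% of protein-coding genes. FGF signalling genes had 4 of 8. The adaptor of the FGF receptors, stumps, had 454 through a promoter peak, and drk, another adaptor gene, had 398.7. The gene ths, which encodes a ligand of Heartless, had 186, and bnl, which encodes the ligand of the tracheal FGF receptor, had 154. The other 4 had none, namely pyr, which encodes the other ligand of Heartless, btl, the FGF receptor gene of tracheal cells, and the signal transduction genes csw and Sos. Muscle structural genes, among which Mef2 has its known targets, had 4 of 10, the tropomyosin gene Tm1 (765), the titin-like gene sls (351), the troponin I gene wupA (137) and the myosin light chain gene Mlc2 (130). The sls peak was at its promoter, while the strongest promoter peak of Tm1 had a signal of 249. The T-box list, which leaves out the Dorsocross genes, had 2 of 5, org-1 (442, at its promoter) and bi (145). The Snail family list had 1 of 3, scrt (128, at its promoter). The symbols Mes4 and mist were not matched in the annotation.

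The genes most like Mef2 in the rank of their strongest window peak over the pooled and 2 replicate lists were Pal1, CG1418 and Pdrg1, which share that peak and so have a distance of 0 in log10 rank. For tin, added after the values were seen, mod(mdg4) shares the peak. The next were kirre, which encodes an adhesion protein of muscle founder cells, with ranks of 202, 207 and 235 (distance 0.0368), and Mppe and pds5, with 197, 213 and 231 (0.0532). The likeness rests on 2 samples and their pool.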

How the data were processed

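ChIP-seq was made from 2 biological replicates of whole embryos, which form 1 group, with sonicated chromatin in a size range of 200 to 800, per the labels. The authors deposited narrowPeak lists on dm6. According to their deposited text files, a replicate's list came from its own reads and a control, the pooled list from the reads of both and the control, and the IDR list from the other 3 lists. The aligner, the caller and the threshold for IDR are not stated in any source used. The signal of each peak is the authors' deposited value, and its scale is not stated. The deposited −log10 q-value was at 1 maximum, 4.12, for every IDR peak, so peaks were ranked by signal. No read counts were used, so the depth per sample and the precision it gives are unknown.

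Summits (peak start plus offset) were assigned to genes of Ensembl release 115 without transposable elements and pseudogenes, 17896 genes with 23722 TSSs. Bases came from the RefSeq Release 6 genome, which is dm6. A peak matched a replicate peak at an overlap of 1 bp, and the match of highest signal was used. Each summit got 1 class, taking promoters (500 bp) first, then UTRs and exons, then introns, then intergenic sequence. No test was made, since there is 1 group. The genes, lists and words were chosen with earlier results of these data known. Named items are the 9 genes, their IDR peaks, their strongest window and promoter peaks, genes nearest to IDR summits, up to 4 genes per list, and the 3 genes of most similar ranks. Other peaks given as examples were chosen after their values were seen. Counting was tested on simulated summits. Tables were made with pandas 2.3.3 and numpy 2.4.6 under Python 3.11.15, correlations with scipy 1.17.1, and figures with matplotlib 3.10.9.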

Additional observations from a re-analysis of the deposited data

How the results depend on the processing

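No paired analysis was possible because there is 1 group. The count of 12 IDR peaks, the 6 genes with an IDR summit, the 3 with an IDR promoter summit, the median signal of 164.5 and the density of 5.53 per 100 kb were recomputed in other settings, and a change by more than 1.5 times was taken as a move. With the gene body alone there were 7 peaks in 3 genes. For this and the other changed settings, save pooled promoter peaks, no share of all genes was computed. Those counts of genes thus have no background beside them. The 1000 strongest IDR peaks gave 3 peaks in 3 genes (tin, Mef2 and Doc2) and 1 promoter (tin). Their median was 565 and their density 1.38. The Mef2 peak among them was that of 1027, 173 bp upstream of Pal1 and Pdrg1, and not at a Mef2 promoter. Pooled peaks with a q-value below 0.05 gave 39 peaks, 7 promoters, a median of 73.4 and a density of 18.0, and all pooled peaks gave 77 peaks, 9 promoters, a median of 48.4 and a density of 35.5. These lists differ in length by construction. Using 1 replicate's top 3571 peaks gave 10 peaks either way, 5 to 6 genes, 2 to 3 promoters and a density of 4.61 per 100 kb. The htl window had none in replicate 1 and 1 in replicate 2, and the promoters were those of tin and Doc1 in replicate 1 and of tin, Mef2 and htl in replicate 2. Replicate signals are on other scales, so no median was taken there. Windows of 2 and 10 kb gave 11 and 16 peaks, in 5 and 6 genes. Promoters of 250 and 1000 bp gave 2 and 3 genes. Counting only the peaks nearest a TSS of the 9 genes gave 9 peaks in 5 genes. Of the 12 IDR peaks, 12 matched both replicates at the stricter overlap, by 0.5 of the IDR peak's width, and 11 with summits within 100 bp.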
